A study of Rattus norvegicus with 6 samples.

Results

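The Hox gene clusters carry, between their protein genes, small RNA genes of the miR-10 and miR-196 families and miR-615. Rows of the deposited count table were taken as members when their name was built on miR-10a, miR-10b, miR-196a, miR-196b, miR-196c or miR-615. This rule found 7 of the 650 mature miRNAs: both strands of miR-10a and of miR-10b, miR-196a-5p, miR-196b-5p and miR-615. The table writes each with the rat prefix rno-, left out below after first use. miR-196c was not analysed here.

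The tissue was the trigeminal ganglion of Sprague-Dawley rats aged 8 to 10 weeks, the ganglion of the head that holds the sensory neurons of the face. In 3 libraries the rats had a chronic constriction of the infraorbital nerve (CCI-ION), in which loose silk ligatures are tied around that nerve. In the other 3 the nerve was only exposed (sham). All rats had the nerve surgery on 1 side, and the ganglia of the operated side were taken 14 days later. Nothing used here says whether a library came from 1 animal or a pool, so a p-value speaks only for the spread of these 6 libraries, and part of that spread may be technical.

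Hox genes are switched on in nested domains along the body, and their order in a cluster follows their order from head to tail. miR-10 genes lie beside the more head-ward Hox genes and miR-196 genes beside more tail-ward ones, and both families are known to repress Hox messages. The trigeminal ganglion forms largely in front of the Hox-expressing part of the embryo, which makes the level of these miRNAs a question of position.

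By gene order in RefSeq (build GRCr8), the hairpin of miR-10a at chr10:81779709-81779818 (plus strand) lay between Hoxb5 and Hoxb4. That of miR-10b at chr3:80035859-80035967 (plus strand) lay inside the span of Hoxd4. The tail-ward loci were those of miR-196a at chr7:135988876-135988985 (plus strand), between Hoxc10 and Hoxc9, and of miR-196b at chr4:82661101-82661185 (minus strand), between Hoxa9 and Hoxa10. The miR-615 hairpin at chr7:136030353-136030444 (plus strand) lay inside the spans of Hoxc5 and Hoxc6. The submitters mapped reads to another build, rn6, and these coordinates are given for location alone.

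The sequences below show which members can be told apart by their reads and which share a seed, the stretch that pairs with target messages. They are the deposited sequences written as RNA, each equal to its RefSeq entry, with the seed (bases 2 to 8) in capitals.
miR-10a-5p: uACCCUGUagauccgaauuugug
miR-10a-3p: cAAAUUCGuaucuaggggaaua
miR-10b-5p: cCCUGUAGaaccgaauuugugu
miR-10b-3p: aCAGAUUCgauucuaggggaa
miR-196a-5p: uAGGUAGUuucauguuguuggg
miR-196b-5p: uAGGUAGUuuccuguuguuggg
miR-615: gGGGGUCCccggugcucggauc

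miR-196a-5p and miR-196b-5p had the same seed, which no other row of the table carried, and differed by 1 base (A12C, the miR-196a-5p base first, counted from its 5′ end). Reads with an error at that base could be counted under the wrong name, so the split between both is uncertain. The other 5 members each had a seed found in no other row.

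The miR-10b-5p entry began 2 bases further into its hairpin than miR-10a-5p did. The next sequence is the miR-10b hairpin from that earlier position, with the bases that the entry leaves out in capitals.
miR-10b hairpin stretch: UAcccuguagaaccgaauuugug
Read from there, the miR-10b stretch had the seed of miR-10a-5p, ACCCUGU, and differed from miR-10a-5p by a single substitution, U12A (the miR-10a-5p base first, counted from its 5′ end). How the authors' counter treated a miR-10b read that starts at the earlier position, or a read with 1 mismatch, is not stated in the labels or files used here. The miR-10b-5p row may therefore miss reads, and the miR-10a-5p row may hold some of them.

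The miRNA counts summed to between 6420434 and 12560545 per library, and 3 counts, the floor used here for a count of 0, corresponded to 0.239 to 0.467 CPM before TMM scaling, where CPM are counts scaled to a common library total. Levels below are CPM scaled with TMM factors unless stated, and 1 read stands for 1 whole miRNA whatever its length. Intervals and floors cover counting error only, since the counts carry no molecular identifiers. Libraries carry numbers 1 to 3 in both groups, and the libraries numbered 1 stood apart from the other 4 on the first principal component of all tested miRNAs (49.3% of the variance). The deposited RPM are reads scaled to a fixed read total, and the total of reads behind them was 24025572 and 24259518 in the libraries numbered 1 and 13793797 to 15228984 in the others. The sensory neuron markers miR-183-5p, miR-96-5p, miR-182 and miR-124-3p summed to between 34885 and 45785 CPM in every library. In whole ganglia, fewer cells of a type and less RNA per cell cannot be told apart.

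rno-miR-10a-5p was the one abundant Hox-locus miRNA of the ganglion. The sham libraries, in the order of their numbers 1 to 3, had 15773, 19445 and 19281 counts of rno-miR-10a-5p, and the CCI-ION libraries had 15844, 15774 and 20163. This strand held between 99.1% and 99.8% of all member counts in a library and ranked 56 of 650 by mean sham level. Its partner strand, miR-10a-3p, had 20, 53 and 57 counts in sham and 21, 45 and 47 in CCI-ION.

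miR-10b, the copy in the HoxD cluster, stood near the floor. rno-miR-10b-5p had 5, 5 and 10 counts in sham and 6, 8 and 7 in CCI-ION, and miR-10b-3p had 9, 6 and 8 in sham and 0, 4 and 2 in CCI-ION. For 1 read of miR-10b-5p there were between 1928 and 3889 reads of miR-10a-5p. That proportion rests on the shifted miR-10b-5p entry shown above.

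The tail-ward members were low, and 2 libraries lacked or nearly lacked them. miR-196a-5p had 0, 41 and 36 counts in sham and 0, 43 and 35 in CCI-ION. miR-196b-5p had 5, 52 and 61 counts in sham and 2, 46 and 45 in CCI-ION. Both libraries at 0 or close to it were those numbered 1, one from each group, although these had the largest totals of their groups. miR-615 had 1 count in CCI-ION library 3 and 0 in the other 5 libraries, which is under the floor in all of them.

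**Figure D1:**
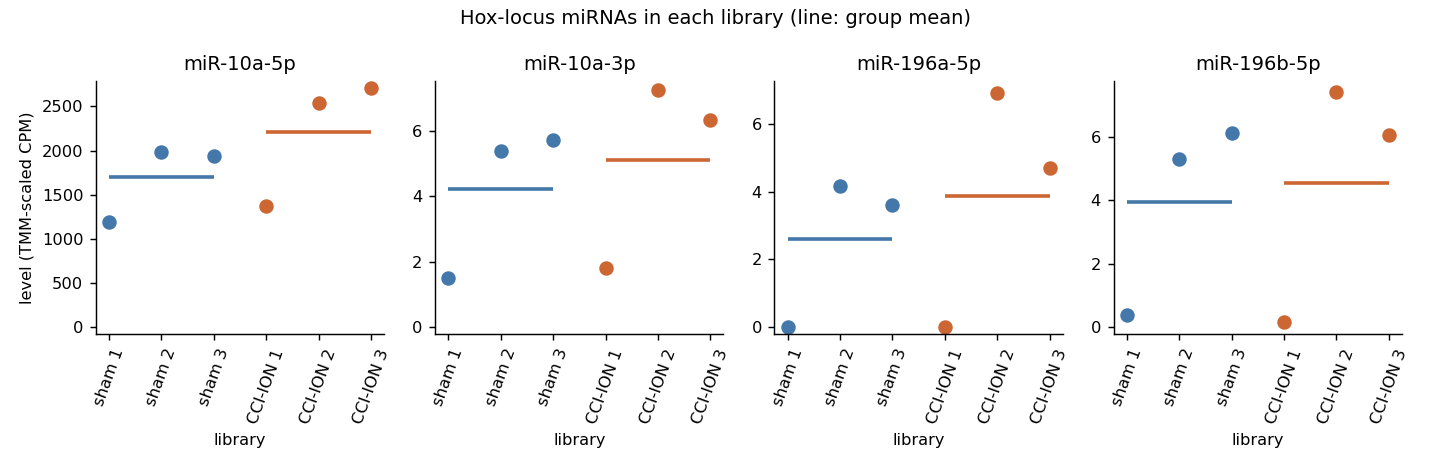
Level of the 4 tested Hox-locus miRNAs in each library (vertical axes: TMM-scaled CPM, a scale per panel; horizontal axis: library; blue points sham, orange points CCI-ION; lines: mean of 3 libraries). In every panel the library numbered 1 is the lowest of its group, and miR-196a-5p is at 0 in both of them.

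The abundant member was a head-ward one, but position along the cluster and level did not go together throughout. miR-10b-5p, from the other head-ward locus, had 5 to 10 counts. In the 4 libraries numbered 2 or 3 it had fewer counts than either miR-196 row. Its counts rest on the shifted miR-10b-5p entry shown above. In the 4 libraries numbered 2 or 3, the 2 miR-196 rows together had 80 to 97 counts, and 1 such read was found for every 177 to 252 reads of miR-10a-5p. In the libraries numbered 1 they had 5 and 2 counts, 1 for every 3155 and 7922 reads of miR-10a-5p. These ratios lie within a library, so library scaling does not enter them. miR-196a-5p made up 37.1% (95% Wilson interval 28.2% to 47.0%) to 48.3% (38.2% to 58.5%) of the miR-196 reads in the 4 libraries with more of them, and the intervals of all 4 overlapped.

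Whether the levels differed between replicate numbers was a question raised by these counts. It was put to an edgeR quasi-likelihood F test of the number terms beside group. Over all 463 miRNAs that passed the filter on low counts, 37.8% were called (adjusted p under 0.05). The filter asks for enough counts in 3 libraries, which miR-196a-5p and miR-196b-5p could reach only through the 4 libraries where they are high. For these 2 the levels are therefore a description, given with no p. Both strands of miR-10a had enough counts in every library and were called, but the test was chosen after the counts of these members had been seen.

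miR-196a-5p was at 0 in both libraries numbered 1 and at 4.17 and 3.61 CPM in sham libraries 2 and 3 and 6.92 and 4.71 CPM in CCI-ION libraries 2 and 3. The floor of 3 counts in the library numbered 1, with TMM scaling, was 0.225 CPM in sham and 0.259 CPM in CCI-ION. Against it the level was at least 18.5-fold and 16.0-fold higher in the sham libraries, and at least 26.7-fold and 18.2-fold higher in the CCI-ION libraries. Those folds leave out the counting error of the higher library. With the counting error of both libraries, the 95% intervals of the same 4 ratios began lower, at 14.4, 12.4, 20.8 and 14.0. Of the 32 rows of the table at 0 in both libraries numbered 1, it was the only one with more than 3 counts in each of the other 4. No other of those 32 rows had more than 1 count in its lowest of the other 4 libraries.

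In number order, miR-196b-5p stood at 0.376, 5.29 and 6.12 CPM in the sham libraries, and the CCI-ION libraries had 0.172, 7.40 and 6.05 CPM. Sham library 2 was 14.1 times sham library 1 (95% counting interval 5.67 to 45.2), and CCI-ION library 3 was 35.1 times CCI-ION library 1 (9.17 to 299). The 2 libraries numbered 1 lay far below the other 4, with no overlap.

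miR-10a-3p followed with a smaller step. It stood at 1.50, 5.39 and 5.72 CPM in sham and 1.81, 7.24 and 6.32 CPM in CCI-ION. Within each group the libraries numbered 2 and 3 were 3.49 to 4.00 times the library numbered 1, and the lowest counting interval began at 2.05 (edgeR F test between numbers, adjusted p = 2.24e-05).

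miR-10a-5p showed the smallest step of these 4. Its level was 1.63 to 1.67 times that of library 1 in sham libraries 3 and 2, and 1.86 and 1.99 times in CCI-ION libraries 2 and 3 (edgeR F test between numbers, adjusted p = 1.31e-07). On the deposited RPM scale the split was also present. The libraries numbered 1 had 657 and 653 RPM of miR-10a-5p, and the other 4 had 1126 to 1462 RPM.

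The difference between replicate numbers lay between number 1 and the others. Without the libraries numbered 1, no member was called between numbers 2 and 3 (edgeR adjusted p from 0.501 for miR-196a-5p to 0.975 for miR-196b-5p; 1.32% of 453 miRNAs called). With limma-voom in place of edgeR the adjusted p between the 3 numbers was 0.00754 for miR-10a-3p and 0.00452 for miR-10a-5p. Each miRNA was then ranked by the mean log2 CPM of the libraries numbered 2 and 3 minus that of the libraries numbered 1. miR-10a-3p (1.77) ranked 3 and miR-10a-5p (0.83) ranked 25 of the 463 tested miRNAs. The median of all tested miRNAs on this measure was 0.00, and 5% lay above 0.83. miR-196a-5p (4.58) and miR-196b-5p (3.77) stood higher. Their values are a description, because both rows passed the filter through the libraries where they are high. They also depend on the prior count of 2 added before the log, since the libraries numbered 1 had 0 to 5 counts. Both libraries numbered 1 lay below the other 4 for 19.7% of the tested miRNAs, these 4 members among them.

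**Figure D2:**
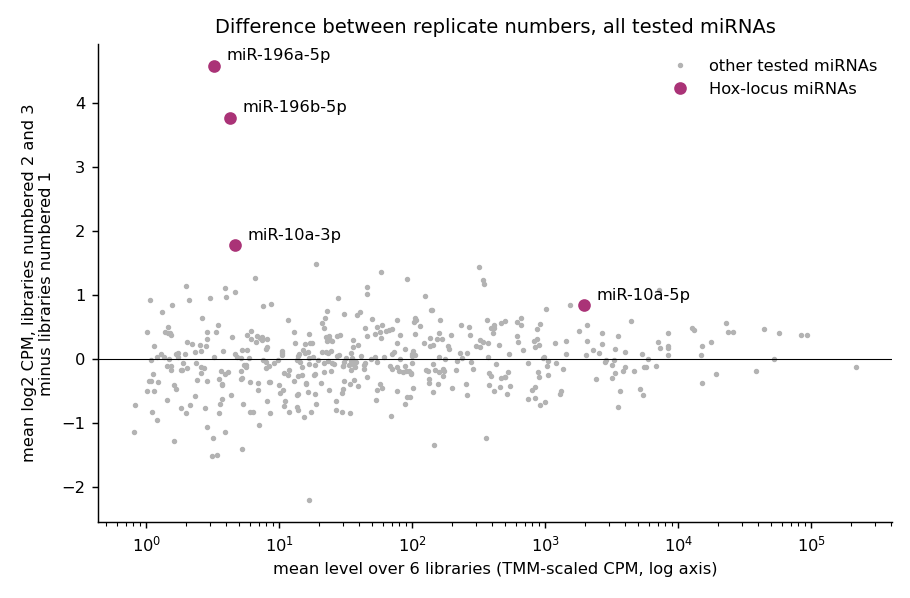
Each point is 1 of 463 tested miRNAs: mean level over 6 libraries (horizontal, TMM-scaled CPM, log axis) against the mean log2 CPM of libraries numbered 2 and 3 minus that of libraries numbered 1 (vertical, log2 units); purple points are the Hox-locus miRNAs. miR-196a-5p at 4.58, miR-196b-5p at 3.77 and miR-10a-3p at 1.77 lie above every other point. miR-10a-5p at 0.83 ranks 25 and lies within the upper part of the cloud. Both miR-196 rows passed the filter through the libraries where they are high, and their values depend on the prior count of 2 added before the log.

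The summed markers of several cell types also stood at other levels in the libraries numbered 1. How many of each list edgeR called between numbers is read against the 37.8% called over all tested miRNAs. The endothelial markers, both strands of miR-126a, summed to 10373 to 10952 CPM in the libraries numbered 1 and 13557 to 15330 CPM in the others, and 2 of 2 were called. Skeletal muscle markers summed to 3342 to 5198 CPM against 6384 to 10675 CPM (2 of 5 called), and fibroblast and mural markers to 25083 to 26060 CPM against 27726 to 42437 CPM (5 of 5 called, 2 of them higher in numbers 2 and 3). The muscle sum was mostly miR-1b, the only one of those 5 with both libraries numbered 1 below the others. Red blood cell markers went the other way, with 752 to 781 CPM in the libraries numbered 1 and 276 to 451 CPM in the others (2 of 3 called). That sum was mostly miR-486, and miR-451-5p of the same list overlapped. Sensory neuron markers had 34885 to 35370 against 42028 to 45785 CPM (2 of 4 called). The sums of leukocyte markers (2 of 4 called) and glial markers (1 of 4 tested called) overlapped. No marker of these lists was at 0 in all libraries. Their part in the levels of the Hox-locus miRNAs was not tested, and the labels do not say what the number stands for.

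The strands of miR-10a gave a measure of the same split that needs no scaling. miR-10a-3p made up 0.127% of both strands in sham library 1 (95% Wilson interval 0.0820% to 0.196%) and 0.132% in CCI-ION library 1 (0.0866% to 0.202%). In the other 4 libraries it made up 0.233% to 0.295%. The intervals of sham libraries 2 and 3 and CCI-ION library 2 lay above those of both libraries numbered 1, while that of CCI-ION library 3 (0.175% to 0.309%) overlapped them. Between the groups the log2 ratio of the 5p to the 3p strand was 8.81 ± 0.65 (SD) in the 3 sham libraries and 8.88 ± 0.55 in the 3 CCI-ION libraries. This difference of 0.07 had p = 0.9 in an exact two-sided permutation test, whose smallest possible p here is 0.1. That difference was smaller than the SD within either group.

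**Figure D3:**
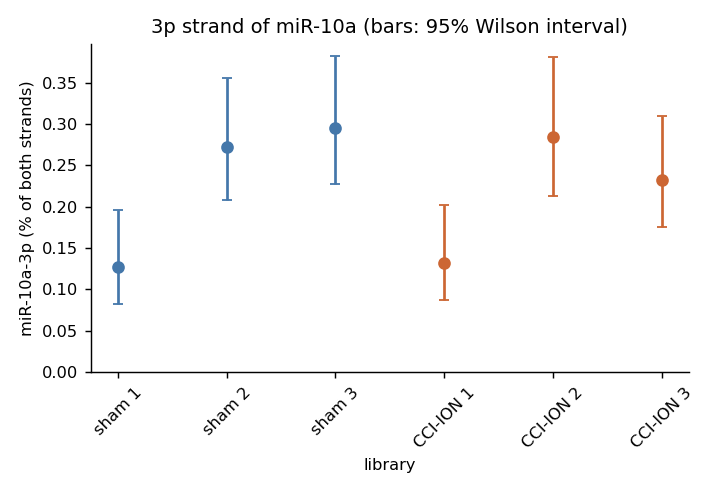
Share of miR-10a-3p in the reads of both miR-10a strands (vertical, percent) in each library (horizontal; blue sham, orange CCI-ION); bars are 95% Wilson intervals. The libraries numbered 1 stand at 0.127% and 0.132% and the other 4 at 0.233% to 0.295%.

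Injured and sham ganglia were compared for a change in these miRNAs 14 days after surgery. In number order, the sham libraries had 1185, 1979 and 1936 CPM of miR-10a-5p, and the CCI-ION libraries had 1366, 2537 and 2712 CPM. CCI-ION library 1 lay below sham libraries 2 and 3, so the groups overlapped. Without regard to the number the means were 1699.9 ± 447 and 2205 ± 732 CPM (SD, n = 3 each), and the log2 fold change of 0.38 ± 0.30 (SE) was not called by edgeR (adjusted p = 0.855). In that fit 0.648% of the tested miRNAs were called and no member was. The groups were without overlap for 13.8% of the tested miRNAs and for none of the 4 tested members.

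Within each number, miR-10a-5p was higher in CCI-ION, by 1.15, 1.28 and 1.40 times in the pairs numbered 1, 2 and 3. Of the tested miRNAs 20.1% were higher in 3 of 3 pairs, among them both strands of miR-10a. With the replicate number as a block it was called higher (log2 fold change 0.35 ± 0.10, edgeR adjusted p = 0.0113). miR-10a-5p was the 1 member called with the block, where 11.7% of the tested miRNAs were called and 6.05% were called higher. That fit left 2 residual degrees of freedom, so its SE leans on the spread of other miRNAs. An exact sign flip test of 3 pairs cannot go below p = 0.25, and the pairing itself was inferred from these data. DESeq2 with the block, which called 9.5%, gave miR-10a-5p an adjusted p of 0.00861. limma-voom with the block, which called 8.42%, gave 0.0551, which misses the threshold. Without the libraries numbered 1 the edgeR call with the block stood (adjusted p = 0.0321), and it was lost without those numbered 2 (0.109) or numbered 3 (0.483).

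**Figure D4:**
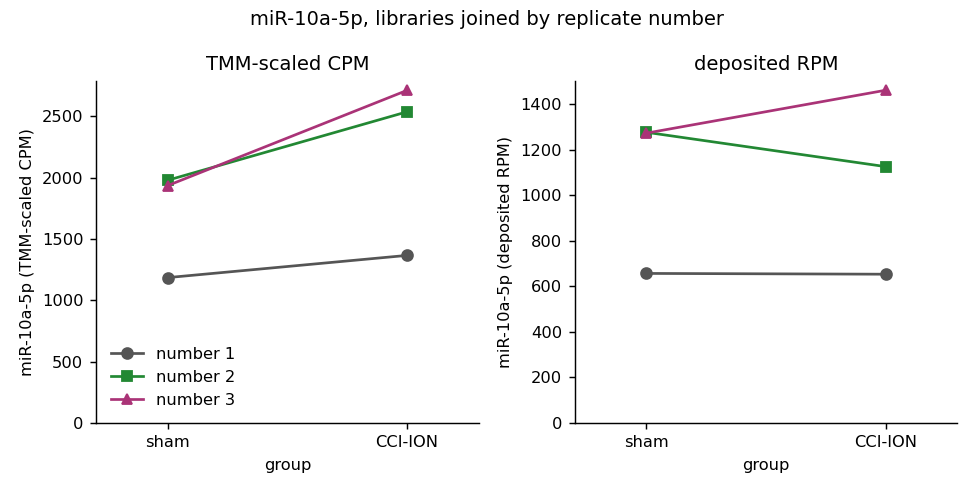
Level of miR-10a-5p in sham and CCI-ION libraries joined by replicate number, on TMM-scaled CPM (left) and on the deposited RPM (right); vertical axes start at 0. On CPM all 3 lines go up (1.15, 1.28 and 1.40 times), and on RPM they go to 0.995, 0.882 and 1.15 times.

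The rise held relative to other miRNAs only. On the deposited RPM, miR-10a-5p had 657, 1277 and 1273 RPM in sham and 653, 1126 and 1462 RPM in CCI-ION, or 0.995, 0.882 and 1.15 times within the numbers. With libraries scaled to the read totals that the RPM rests on, the log2 fold change with the block was 0.0035 ± 0.16 (edgeR adjusted p = 0.992). The tested miRNAs then had a median of -0.35. Relative to that median miR-10a-5p stood at 0.35 on either scaling. That agreement carries no weight of its own, because a change of scale moves every miRNA of a library by nearly the same factor.

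**Figure D5:**
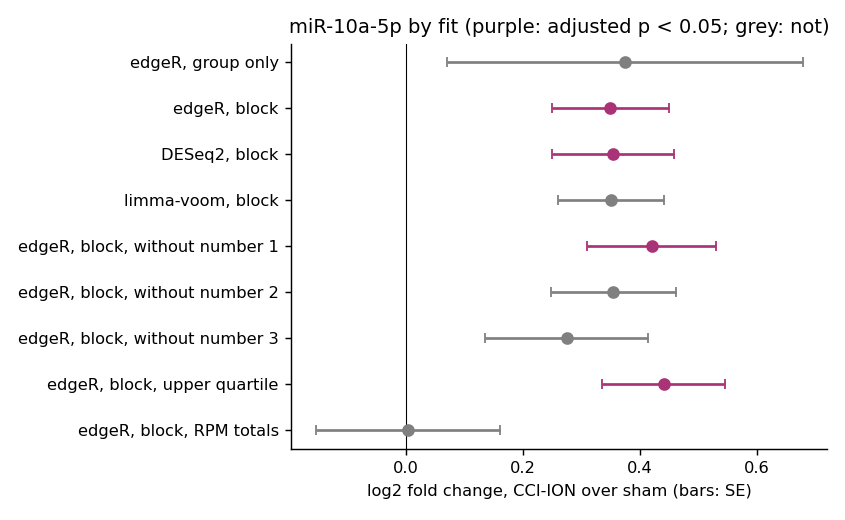
log2 fold change of miR-10a-5p, CCI-ION over sham (horizontal, bars: SE), in 9 fits (vertical); purple points have an adjusted p under 0.05, grey points do not. The value lies between 0.28 and 0.44 in 8 of them and at 0.0035 with libraries scaled to the read totals of the RPM.

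The other members did not pass the test in either fit. miR-10a-3p averaged 4.21 ± 2.35 CPM over the sham libraries and 5.12 ± 2.91 CPM over the CCI-ION libraries (SD, n = 3 each; log2 fold change with the block 0.28 ± 0.28, edgeR adjusted p = 0.612). miR-196a-5p averaged 2.60 ± 2.27 and 3.88 ± 3.53 CPM (0.56 ± 0.34 with the block, edgeR adjusted p = 0.339), and miR-196b-5p averaged 3.93 ± 3.11 and 4.54 ± 3.84 CPM (0.14 ± 0.31 with the block, edgeR adjusted p = 0.845). For these 3 the SD within a group was more than the difference between the groups. An SE of 0.28 to 0.34 at these counts leaves changes of modest size undetectable. miR-10b-5p, miR-10b-3p and miR-615 did not pass the filter and were not tested.

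Some markers of other cell types were also called between the groups with the block, where 11.7% of all tested miRNAs were called and 6.05% were called higher. By edgeR, 2 of 4 leukocyte markers rose (miR-142-3p and miR-155-5p), with the list summing to 63.8 to 97.2 CPM in sham and 114.7 to 128.9 CPM in CCI-ION. Of 5 fibroblast and mural markers 1 rose, miR-199a-5p, and the sums overlapped (25083 to 34870 and 26060 to 42437 CPM). Of 5 skeletal muscle markers 2 fell, and of 4 sensory neuron markers 1 fell. No endothelial, red blood cell or glial marker was called with the block. Their part in the rise of miR-10a-5p was not tested.

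As a set, the 7 members held, in number order, 0.126%, 0.193% and 0.193% of the miRNA counts of the sham libraries and 0.144%, 0.248% and 0.264% of those of the CCI-ION libraries. The means were 0.171% ± 0.039 and 0.219% ± 0.065 (SD over 3 libraries), with p = 0.3 in the exact two-sided permutation test. The difference of 0.0479 percentage points moved between 0.0253 (CCI-ION library 3 left out) and 0.0852 (CCI-ION library 1 left out), and it was 0.0255 without sham library 1. As a share of the read totals behind the RPM, the means were 0.108% ± 0.036 and 0.109% ± 0.041 (SD over 3 libraries), with p = 1 in the same exact permutation test. The log2 ratio of miR-10a-5p to miR-10b-5p averaged 11.27 ± 0.45 over the sham libraries and 11.07 ± 0.27 over the CCI-ION libraries, with p = 0.5 in the same exact test. The differences in the share of miRNA counts and in this ratio were smaller than the larger SD within a group.

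miR-99a, miR-99b and miR-100 are relatives of miR-10 that lie outside the Hox clusters, and they are shown to mark how close the sequences are. Capitals mark the longest run of bases shared with miR-10a-5p.
miR-10a-5p: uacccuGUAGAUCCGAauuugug
miR-99a-5p: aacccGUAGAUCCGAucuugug
miR-100-5p: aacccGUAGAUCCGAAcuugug
The run was 10 bases for miR-99a-5p and 11 for miR-100-5p, but their seed, ACCCGUA, was not that of miR-10a-5p. Of their 6 strands 5 were tested, and edgeR called none between groups, with or without the block, and none between numbers. miR-99a-5p stood at 230768 and 233209 CPM in the libraries numbered 1 and at 197895 to 220009 CPM in the others (edgeR F test between numbers, adjusted p = 0.425). Whether its pattern differs from that of miR-10a-5p was not tested.

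The tested miRNAs with the profile most like each member were found from log2 CPM centred on its mean over the 6 libraries, as the smallest root mean square difference. For miR-10a-5p these were miR-135a-5p (0.105 log2 units), miR-145-5p (0.108), miR-19b-3p (0.137), miR-376c-3p (0.166) and miR-342-3p (0.188). miR-145-5p, listed among the fibroblast and mural markers, had 636, 1098 and 1061 CPM in sham and 749, 1367 and 1213 CPM in CCI-ION. That it was low in the same 2 libraries as miR-10a-5p follows from how it was chosen. Of the 5 markers on that list, 2 were called higher in numbers 2 and 3. For miR-10a-3p the nearest was miR-200b-3p (0.227), followed by the shared 3p strand of let-7a-1 and let-7c-2 (0.336), miR-374-3p (0.342), miR-384-3p (0.356) and miR-592 (0.366). Its own 5p strand came 13th, at 0.456. For miR-196a-5p the nearest was miR-196b-5p (0.462), and the second nearest of each miR-196 row was miR-10a-3p (1.34 from miR-196a-5p and 0.974 from miR-196b-5p). miR-592, miR-200b-3p and miR-135b-5p came next for both, at 1.099 to 1.59. By the difference between replicate numbers, miR-10a-3p ranked 3, right after both miR-196 rows. Its nearness to them follows largely from the size of that step and from the prior count. Both miR-196 rows also passed the filter through the libraries where they are high. These distances are therefore a description and no test of a shared pattern.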

How the data were processed

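The authors deposited raw counts of 650 mature miRNAs in 6 libraries, and per-library RPM values. cutadapt 1.14, Bowtie 1.1.1 and the build rn6 are named in the submitters' processing notes. The sources used here do not give the read counter or the miRNA annotation. From the deposited RPM, whole reads were recovered for 100% of values within 0.01 read. They equalled the counts, and edgeR on these reads called 3 miRNAs, as on the counts.

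Counts were tested with edgeR 4.0.16 (robust quasi-likelihood, TMM, filterByExpr, which kept 463 and left out 187) in R 4.3.3, with Benjamini-Hochberg adjustment over all tested miRNAs. DESeq2 1.42.0 and limma-voom (limma 3.58.1) on the same filtered counts were alternatives. A replicate block was an alternative. Deviations of same-numbered libraries from their group means correlated at 0.664, 0.591 and 0.457, so the numbers were treated as pairing the libraries; the pairing comes from these data, not from a label. The F test between numbers and 6 further fits were added after seeing the data. The SE of an edgeR fit is the log2 fold change divided by the root of F, and DESeq2 and limma-voom gave their own SE. Ratios used a pseudocount of 1, and profiles a prior count of 2. Named miRNAs are the members, their sequence relatives, the 5 nearest profiles and fixed cell type lists. Members and lists were chosen with earlier results of these data known. The procedure was tested on simulated counts.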

Additional observations from a re-analysis of the deposited data

How the results depend on the processing

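edgeR without the block called 3 miRNAs between groups (46 at an unadjusted p under 0.05), and 6 both with the totals behind the RPM and with no filter, while DESeq2 called 13. With the replicate block the count was 54 with edgeR (also with miR-10a-5p and miR-10b-5p summed), 44 with DESeq2, 39 with limma-voom, 51 with DESeq2 size factors, 60 with upper quartile factors, 61 with no filter and 158 with the totals behind the RPM. Leaving out 1 library without the block gave 1 to 7 calls, leaving out both of a number with the block gave 45 (number 1), 31 (number 2) and 5 (number 3), and leaving out number 1 without the block gave 12. The difference between numbers was called for 175 miRNAs, 112 with the totals behind the RPM, 114 with limma-voom and 132 with DESeq2, and for 6 to 107 when a number was left out. miR-10a-5p was positive in all fits and called with the block by edgeR under TMM, DESeq2 size factors (0.35), upper quartile factors (0.44), no filter (0.32), the summed rows (0.35) and without number 1 (0.42), and by DESeq2 (0.35). Without the block it was never called. There, the totals behind the RPM gave 0.015, and leaving out 1 library gave 0.17 (sham library 1) to 0.63 (CCI-ION library 1). miR-10a-3p, never called, turned negative with the totals behind the RPM (-0.12, with the block -0.083), and leaving out 1 library moved it from -0.16 to 0.70. miR-196a-5p moved from -0.19 to 1.20 when 1 library was left out. miR-196b-5p turned negative with limma-voom (-0.32), the totals behind the RPM (-0.22, with the block -0.27) and the block without number 2 (-0.13), and moved from -0.39 to 0.80 when 1 library was left out. The group difference in the strand ratio of miR-10a moved from -0.24 (CCI-ION library 1 left out) to 0.44 (sham library 1 left out), and that in the miR-10a-5p to miR-10b-5p ratio from -0.44 (sham library 3 left out) to 0.0052 (sham library 2 left out). With pairs by number, sign flips gave 0.07 for the first and -0.19 for the second (exact p = 1 and 0.75, smallest possible 0.25). The cause of these changes was not tested. The strand ratio of miR-10b was not run, because miR-10b-3p was at 0 in 1 library. Counts of 10 or fewer per library limit miR-10b, and 0 to 61 limit miR-196.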

Other observations

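Outside the Hox loci, the miRNA furthest in the opposite direction between replicate numbers was miR-144-3p, listed as a red blood cell marker. It had 43.0 and 27.7 CPM in the libraries numbered 1 and 5.78 to 9.33 CPM in the other 4. Its partner strand, miR-144-5p, had 19.1 and 18.4 CPM against 9.87 to 17.7 CPM. That strand was not called (edgeR F test between numbers, adjusted p = 0.190). miR-486, also of red blood cells, had 536 and 618 CPM in the libraries numbered 1 and 190 to 273 CPM in the others (edgeR F test between numbers, adjusted p = 1.29e-12, the smallest of all 463). The remaining red blood cell marker, miR-451-5p, did not follow this split. It had 172 and 135 CPM in the libraries numbered 1 and 79.4 to 191 CPM in the others. miR-1b, listed as a skeletal muscle marker, had the same direction as the Hox-locus miRNAs. It stood at 5026 and 3234 CPM against 6265 to 10480 CPM (adjusted p = 1.32e-11 by the same edgeR test). miR-133a-3p, miR-133b-3p and miR-206-3p of that list were at 9.92 to 84.6 CPM over all libraries. Of the 5 skeletal muscle markers, miR-1b was the only one with both libraries numbered 1 below the other 4.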
